A study of Homo sapiens with 3 samples.

Results

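The transcripts of 49 DNA replication and S phase genes were examined in HT29, a human colon cancer cell line, cultured on different substrates. The members were chosen as genes named for a part in copying DNA: origin licensing, helicase activation, the sliding clamp and its loader, single-strand binding, polymerases and primase, flap processing and ligation, nucleotide supply, G1/S control and chromatin assembly. HUS1, a subunit of the checkpoint clamp that is loaded at damaged DNA, was also a member. All 49 were found among 21610 genes with a probe, and all 49 were well above background on every array. Cells on tissue culture polystyrene (TCP) plates were the control, and the other groups were cells on chitosan (CS) membranes and on chitosan membranes grafted with hyaluronan (CSHA). Each substrate was represented by 1 one-color microarray of total RNA, so no difference below has a replicate check and no test was made. HT29 is a single established line, and the labels name no difference between the groups other than the substrate. The time in culture before RNA was taken is not given in the sources used here.

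Before a cell enters S phase, the origin recognition complex with CDC6 and CDT1 loads the MCM2-7 helicase onto DNA, a step called licensing. CDC45, the GINS complex and MCM10 then turn the loaded helicase into an active one. DNA polymerase alpha with primase starts each strand, RFC loads the PCNA clamp, and polymerases delta and epsilon extend the strands while RPA covers single-stranded DNA. FEN1 and LIG1 join the lagging strand pieces. Many of these genes are transcribed at the G1/S boundary by the E2F factors, and their summed level in a culture is widely read as a sign of how many cells are cycling. In RNA from a whole culture, fewer cells in S phase and less RNA per cell cannot be told apart.

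The promoters are shown first because E2F factors act through a known sequence. The sequence was not used to choose the members, but the choice took in genes known to be transcribed by E2F factors. Their share of motifs is therefore given as a description only. An E2F-type motif was searched as TTTCCCGC, TTTCGCGC, TTTGCCGC or TTTGGCGC on either strand in the 250 bases before the start of each gene, with overlapping matches counted apart, using the RefSeq promoters of GRCh38.p14. It was present in 14 of the 41 members that had an entry (34.1%) and in 761 of all 27305 promoters (2.79%). The CCAAT box, searched as CCAAT on either strand, was present in 23 of 41 members (56.1%) and in 33.0% of all promoters. The median GC content was 68.0% in the members and 58.0% in all promoters. No entry was used for MCM4, MCM5, GINS4, CCNE2, HUS1, RPA2, RPA3 and POLD3. The stretches below are read 5′ to 3′ on the strand of the gene, with the E2F-type motif in capitals. MCM6, PCNA and E2F1 are shown as members whose signals lay close to those on TCP, and POLA2 and POLE as members with lower signals on CSHA, each by its brightest probe. The other probe of POLE gave a log2 difference of 0.47 on CSHA, and the other probes of PCNA gave -0.03 and -0.49.
MCM6 (chr2:135876502-135876601, minus strand, 158 to 59 bases before the start): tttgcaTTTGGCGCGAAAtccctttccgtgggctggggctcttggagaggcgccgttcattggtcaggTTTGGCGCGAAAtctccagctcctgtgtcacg
PCNA (chr20:5126654-5126753, minus strand, 131 to 32 bases before the start): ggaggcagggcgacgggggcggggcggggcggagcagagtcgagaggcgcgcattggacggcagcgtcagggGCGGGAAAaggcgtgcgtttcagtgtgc
E2F1 (chr20:33686386-33686485, minus strand, 100 to 1 bases before the start): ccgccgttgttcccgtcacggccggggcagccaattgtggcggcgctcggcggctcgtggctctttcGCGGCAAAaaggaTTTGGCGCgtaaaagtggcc
POLA2 (chr11:65261837-65261936, plus strand, 125 to 26 bases before the start): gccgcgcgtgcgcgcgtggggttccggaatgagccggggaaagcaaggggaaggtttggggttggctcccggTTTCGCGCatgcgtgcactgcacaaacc
POLE (chr12:132687343-132687442, minus strand, 100 to 1 bases before the start): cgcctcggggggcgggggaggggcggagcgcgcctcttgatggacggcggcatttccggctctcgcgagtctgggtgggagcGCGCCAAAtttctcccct
MCM6 held 4 matches, 1 on each strand of the same run at 2 places. The other 9 members with the motif were CDT1, MCM3, MCM7, GINS2, RFC3, POLA1, LIG1, TYMS and UHRF1. A match is a description of the letters and not a bound site.

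The signal of each probe was given as the scanner's processed signal, and its level as the log2 of that signal minus the 75th percentile of the array. For TCP that percentile was 354, for CS 423 and for CSHA 337. A gene was read from its brightest probe, and differences between arrays are differences of these log2 levels. Between 48.6% and 51.1% of probes were well above background, and no spot was saturated. Where a probe was printed 10 times on an array, its spots had a median SD (log2) of 0.054, 0.047 and 0.056 for TCP, CS and CSHA. This spot error, which grows for dim probes, is the only error among repeats of the same probe and says nothing about the spread between cultures. Nor does it cover the spread among different probes of a gene, whose median range in 11 members was 0.20 on CS and 0.46 on CSHA. The 8 epithelial markers were well above background on all 3 arrays. Of 7 stromal markers, SPARC and VIM were well above background on TCP and none was on CS or CSHA, with summed signals of 91.7, 47.3 and 34.8. Of 6 immune markers, 4, 3 and 4 were well above background on TCP, CS and CSHA, with summed signals of 1137, 1761 and 1979. The part of these markers in the differences below was not tested.

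The members were bright genes. On TCP their signals ran from 157 to 127512. The CS array gave 55.5 to 124440 and the CSHA array 48.4 to 81780, where the lowest signals called well above background were 24.1 (TCP), 21.1 (CS) and 22.6 (CSHA). TK1, the thymidine salvage kinase, gave the highest signal on every array, and CDC6 and HUS1 gave the lowest. Signals of different probes are not compared as levels of transcripts, since probes bind with different strength.

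**Figure D1:**
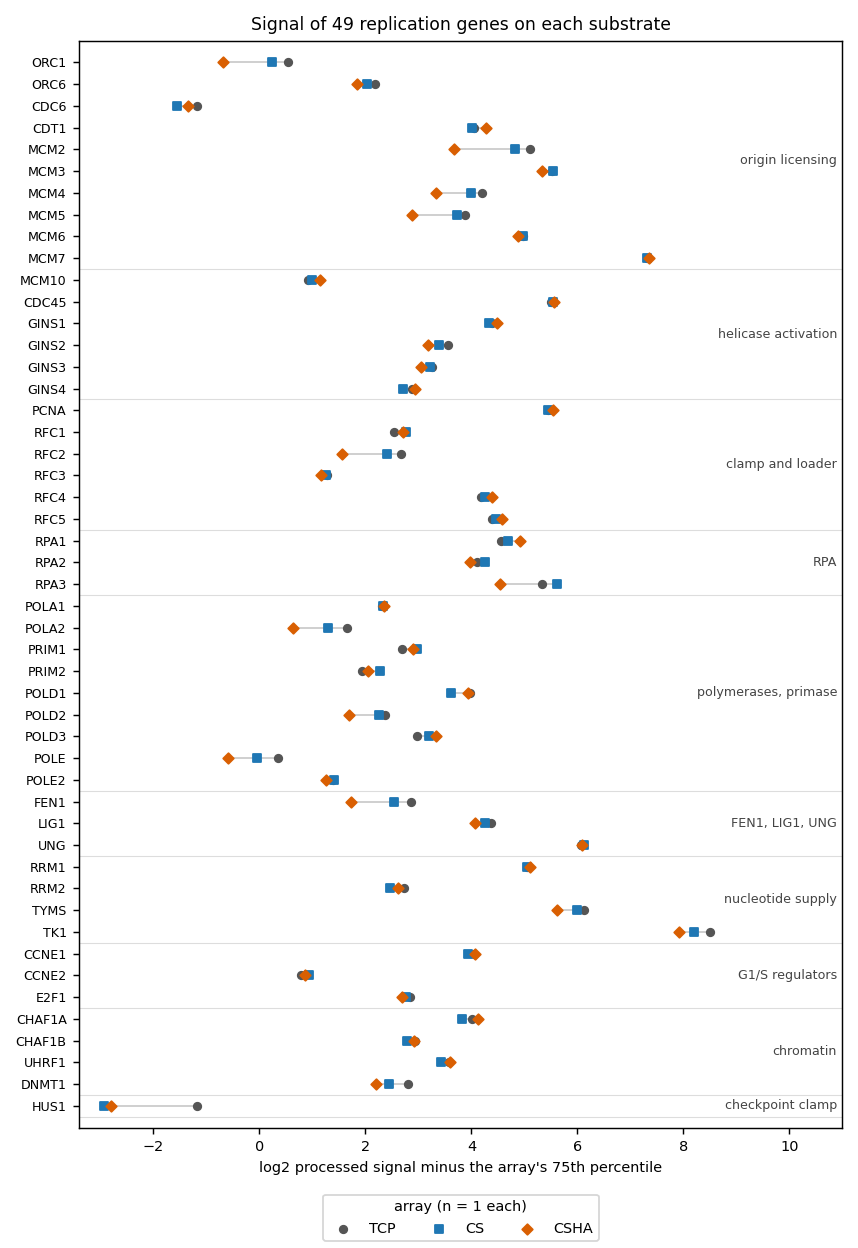
Log2 processed signal minus the 75th percentile of the array (x axis) for each of 49 replication genes (rows, grouped by role), with 1 point per array for TCP, CS and CSHA (n = 1 each). Most rows hold 3 points close together, and MCM2, ORC1, MCM5, RFC2, POLA2 and FEN1 have their CSHA point set to the left, by 1.01 to 1.43 from TCP (each less by 0.44 with spike-in scaling).

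On CS membranes the replication genes stayed near their values on TCP plates. The median of the 49 differences was -0.08 and that of all 14461 genes compared was 0.04 (log2, CS minus TCP). Without a filter on dim probes the median of all genes was -0.05. Of the members, 19 were higher and 30 were lower (38.8% higher), as compared to 56.8% of all genes higher. Of the 49, 34 lay within 0.25 of 0. Most genes on the array were also this close, with quartiles of -0.14 and 0.21 over all genes compared. HUS1 was the only member at least 2-fold or at least 1.5-fold lower, and no member was 1.5-fold higher. Among all genes, the 2-fold line was passed upward by 1.36% and downward by 1.92% on CS, and the 1.5-fold line by 4.11% and 5.03%. Of the 13486 genes measured on every array, as all members were, 0.59% were 2-fold lower and 2.90% were 1.5-fold lower on CS. The highest members on CS were PRIM2 (0.33), RPA3 (0.28), PRIM1 (0.28), RFC1 (0.24) and POLD3 (0.23). The lowest after HUS1 (-1.75) were POLE (-0.40), CDC6 (-0.38), POLA2 (-0.37), POLD1 (-0.36) and DNMT1 (-0.36).

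On CSHA membranes most members also stayed near TCP, but a set of them had clearly lower signals. The median was -0.10 for the members and 0.13 for all 14622 genes compared (log2, CSHA minus TCP), and 21 members were higher and 28 lower (42.9% higher, against 61.7% of all genes). HUS1, MCM2, ORC1, FEN1, RFC2, POLA2 and MCM5 were at least 2-fold lower, that is 7 of 49 (14.3%). POLE, MCM4, RPA3, POLD2 and DNMT1 were between 1.5-fold and 2-fold lower, so that 12 of 49 (24.5%) passed 1.5-fold by their brightest probes. For POLE the other probe gave 0.47, so its direction depends on the probe. No member was 1.5-fold higher. Among all genes, 3.02% passed 2-fold upward and 3.93% downward, and 11.5% and 11.1% passed 1.5-fold in these directions. The members were all measured on every array, and of the 13486 genes of which this held, 3.30% were 2-fold lower and 10.4% were 1.5-fold lower. Without HUS1, the dimmest of the set, 6 of 48 members (12.5%) were 2-fold lower. These directions depend on the scaling: with the arrays set level on their spike-in probes, the median difference of all genes moved up by 0.44 and that of the members turned to 0.33, with 71.4% of members higher and 1 of them, HUS1, 2-fold lower. At 1.5-fold, that scaling left 6 members lower (HUS1, MCM2, ORC1, FEN1, RFC2 and POLA2) and put 8 higher (RPA1 at 0.80, POLD3 at 0.80, and CDT1, MCM10, RFC4, PRIM1, RFC5 and RFC1 between 0.62 and 0.67). The median of the members was 0.23 below that of all genes under either scaling. This gap could hardly change, since spike-in scaling shifts every measured gene by the same 0.44. With no filter on dim probes the gap, members minus all genes, was -0.11. Each of the 7 genes named first was still lower than on TCP with spike-in scaling.

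**Figure D2:**
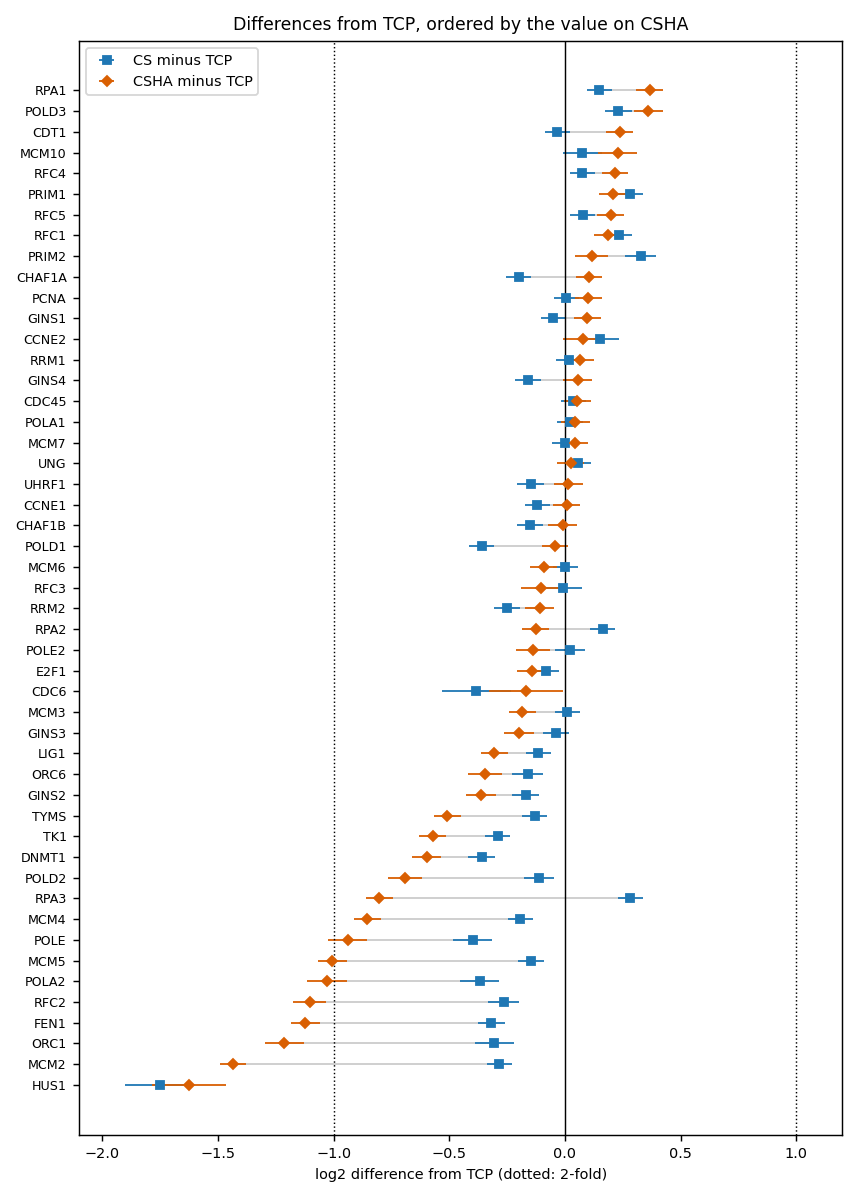
Log2 difference from TCP (x axis) for each of 49 replication genes, ordered by the CSHA value, for CS minus TCP (squares) and CSHA minus TCP (diamonds), 1 array per substrate. Bars are 1 SD of the difference expected from spots of like brightness, and dotted lines mark 2-fold. The CS points lie between -0.40 and 0.33 except for HUS1, while the CSHA points of 7 genes lie beyond 2-fold lower. With spike-in scaling all CSHA points move 0.44 to the right.

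The MCM2-7 helicase was split on CSHA. MCM2 gave signals of 12243 on TCP, 11997 on CS and 4314 on CSHA, which was 2.70-fold lower on CSHA than on TCP (-1.43 ± 0.058, spot SD). MCM5 gave 5201, 5612 and 2467 (-1.01 ± 0.064), and its other probe gave -1.11. MCM4 gave 6478, 6759 and 3415 (-0.85 ± 0.058). The remaining subunits, MCM3, MCM6 and MCM7, were close to TCP on CSHA in this scaling (0.25, 0.34 and 0.48 with spike-in scaling). MCM3 gave 16285, 19588 and 13661 (-0.18), MCM6 gave 11084, 13241 and 9908 (-0.09), and MCM7 gave 56343, 67215 and 55339 (0.04). The other probe of MCM7 gave 0.67, so its level on CSHA was higher or near TCP depending on the probe. The differences of the 6 subunits spanned 1.48 on CSHA and 0.30 on CS, and this span does not depend on the scaling.

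The other licensing genes were also unequal on CSHA. ORC1, the largest subunit of the origin recognition complex, gave 512 on TCP, 495 on CS and 211 on CSHA (-1.21 ± 0.085). ORC6, a small subunit of the same complex, gave -0.35. CDC6, the loading ATPase, gave low signals of 157, 144 and 133 (-0.38 on CS, -0.17 on CSHA). CDT1, which brings the helicase to the origin, gave 0.24 on CSHA and was among the 5 highest members there. Over the 10 licensing genes the median was -0.15 on CS and -0.26 on CSHA, with 3 genes 2-fold lower on CSHA. With spike-in scaling the CSHA median turned to 0.17, and the 4 genes 1.5-fold lower in the 75th percentile scaling (MCM2, ORC1, MCM5 and MCM4) were still lower, the last 3 of them at -0.78, -0.57 and -0.42.

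The 6 genes that activate the helicase moved little on either membrane, with medians of -0.04 on CS and 0.05 on CSHA (0.49 on CSHA with spike-in scaling). CDC45 gave signals of 15999, 19576 and 15818 on TCP, CS and CSHA (0.05 on CSHA). MCM10 was the highest of them on CSHA (0.23) and GINS2 the lowest (-0.36). GINS1, GINS3 and GINS4 lay between -0.20 and 0.10.

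PCNA and 4 of the 5 RFC subunits lay close to TCP, while RFC2 did not. PCNA gave 15345, 18397 and 15685 (0.10 on CSHA), but its other probes gave -0.03 and -0.49. RFC2, a small subunit of the clamp loader, gave 2248 on TCP, 2233 on CS and 997 on CSHA (-1.10 ± 0.072). RFC4 (0.22), RFC5 (0.20), RFC1 (0.19) and RFC3 (-0.10) were spread over a far smaller range. With spike-in scaling RFC4, RFC5 and RFC1 were 1.5-fold higher on CSHA (0.65, 0.63 and 0.62). PCNA then gave 0.54, RFC3 0.33 and RFC2 -0.67. The RPA subunits were likewise unequal on CSHA. RPA1, the large subunit that holds the DNA, was the highest member there (0.37), with signals of 8288, 10967 and 10179. RPA2 gave -0.13. RPA3, the small subunit, gave 14315 on TCP, 20783 on CS and 7822 on CSHA, so it was higher on CS (0.28) and lower on CSHA (-0.80 ± 0.058). With spike-in scaling RPA1, RPA2 and RPA3 gave 0.80, 0.31 and -0.37 on CSHA.

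The polymerase genes were unequal on CSHA, with POLA2, POLE and POLD2 the lowest of the 9 by their brightest probes. POLA1, the catalytic subunit of polymerase alpha, gave 1754, 2127 and 1724 (0.04 on CSHA), whereas POLA2, its accessory subunit, gave 1119, 1034 and 522 (-1.03 ± 0.085). The primase genes were not lower: PRIM1 gave 0.21 on CSHA and PRIM2 gave 0.12, although the other probes of PRIM2 gave -0.19 and -0.35. In polymerase delta, POLD1, the catalytic subunit, gave -0.04 on CSHA and -0.36 on CS, POLD2 gave 1839, 2029 and 1085 (-0.69 ± 0.072), and POLD3 gave 0.36. In polymerase epsilon, POLE, the catalytic subunit, gave 452, 409 and 224 (-0.94 ± 0.085), and its dimmer probe went the other way (0.47). The direction of POLE on CSHA therefore depends on the probe. POLE2 gave -0.14. Over the 9 genes the median was 0.02 on CS and -0.04 on CSHA (0.39 with spike-in scaling).

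FEN1, the nuclease that trims Okazaki fragment flaps, gave 2558 on TCP, 2450 on CS and 1120 on CSHA (-1.12 ± 0.064). LIG1, the ligase of the same step, gave -0.31 on CSHA, and UNG, which removes uracil from DNA, gave 0.03. Of the nucleotide supply genes, TK1 gave 127512, 124440 and 81780 (-0.57 on CSHA) and TYMS, the thymidylate synthase, gave 24558, 26764 and 16443 (-0.51). TK1 was 1.49-fold and TYMS 1.42-fold lower on CSHA, and with spike-in scaling they gave -0.13 and -0.07. RRM1 and RRM2, the subunits of ribonucleotide reductase, gave 0.07 and -0.11 on CSHA.

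The G1/S regulators CCNE1, CCNE2 and E2F1 lay between -0.14 and 0.08 on CSHA and between -0.12 and 0.15 on CS by their brightest probes. Their median on CSHA was 0.01, and 0.44 with spike-in scaling. E2F1 gave 2535, 2860 and 2187 on TCP, CS and CSHA from a probe printed 10 times. The dimmer probe of CCNE2 gave -0.18 on CS and -0.42 on CSHA. Of the chromatin genes, DNMT1, the maintenance DNA methyltransferase, gave 2475, 2302 and 1558 (-0.36 on CS, -0.60 ± 0.064 on CSHA). UHRF1, which guides DNMT1 to replicated DNA, gave 0.02 on CSHA, and CHAF1B gave -0.01. CHAF1A, the large subunit of chromatin assembly factor 1, gave 0.10 by its brightest probe and -1.08 by the other, so no direction is given for it.

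HUS1, a subunit of the checkpoint clamp that is loaded at damaged DNA, was the only member 2-fold lower on both membranes. It gave 157, 55.5 and 48.4 for TCP, CS and CSHA (-1.75 and -1.62 ± 0.16, spot SD). The gene was read from 1 dim probe. With normexp background correction the differences were -0.95 and -0.84, so the size for HUS1 depends on how the background was handled.

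Some genes were read by several probes. Of the 11 members with more than 1 probe, probes pointed in opposite directions by more than the spot SD in 2 on CS (PRIM2 and CCNE2) and in 4 on CSHA (PCNA, PRIM2, POLE and CHAF1A). The median range among the probes of a gene was 0.20 on CS and 0.46 on CSHA. MCM5 was the only gene of the 7 that were 2-fold lower on CSHA with a further probe, and that probe was also 2-fold lower. The other 6 rest on a single probe.

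**Figure D3:**
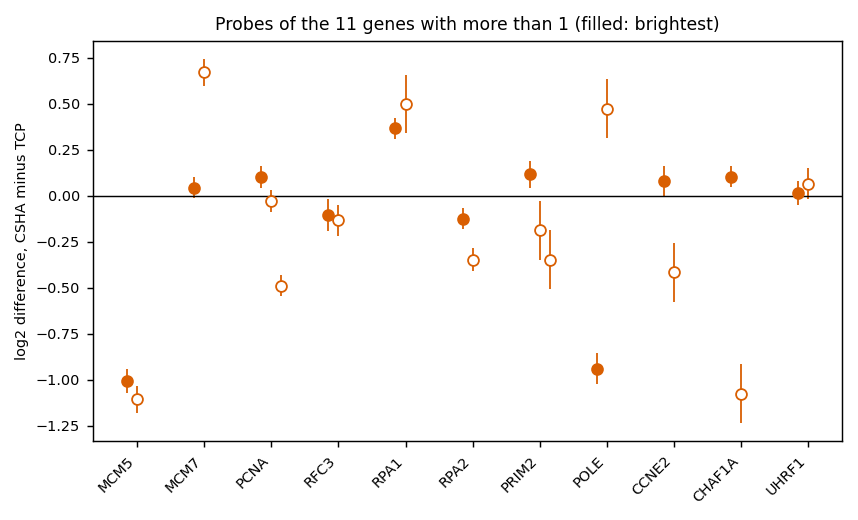
Log2 difference CSHA minus TCP (y axis) of every probe of the 11 replication genes with more than 1 probe, with the brightest probe filled and bars of 1 spot SD (1 array per substrate). MCM5 has both probes near -1, while POLE (-0.94 and 0.47) and CHAF1A (0.10 and -1.08) have probes on either side of 0. With spike-in scaling all points move 0.44 up.

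CSHA was also set against CS, where TCP takes no part. The median was -0.07 for the members and 0.07 for all 14573 genes (0.31 and 0.46 with spike-in scaling). MCM2 (-1.15) and RPA3 (-1.08) were at least 2-fold lower. ORC1 (-0.91), MCM5 (-0.86), RFC2 (-0.84), FEN1 (-0.80), MCM4 (-0.66) and POLA2 (-0.66) passed 1.5-fold, which made 8 of 49 members, and none was 1.5-fold higher. Over all genes, 2.28% lay 2-fold or more above CS and 2.13% below it, and 7.69% and 7.31% did so at 1.5-fold. Of the 13486 genes measured on every array, 1.51% were 2-fold lower and 6.63% were 1.5-fold lower than on CS. HUS1 did not differ much here (0.13). With spike-in scaling none was 2-fold lower, and MCM2 (-0.77) and RPA3 (-0.70) were the 2 members still 1.5-fold lower. POLD1 (0.70), CHAF1A (0.69), CDT1 (0.65), RPA1, CDC6 and GINS4 (each 0.60) were then 1.5-fold higher.

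The differences from TCP can be set beside the spot error, for the 75th percentile scaling alone. Among the 49 members, 23 on CS and 21 on CSHA lay more than 2 spot SDs below 0, 7 and 8 lay more than 2 above, and 13 and 10 lay within 1. The same counts were not made over all genes, so they do not set the members apart from other genes.

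**Figure D4:**
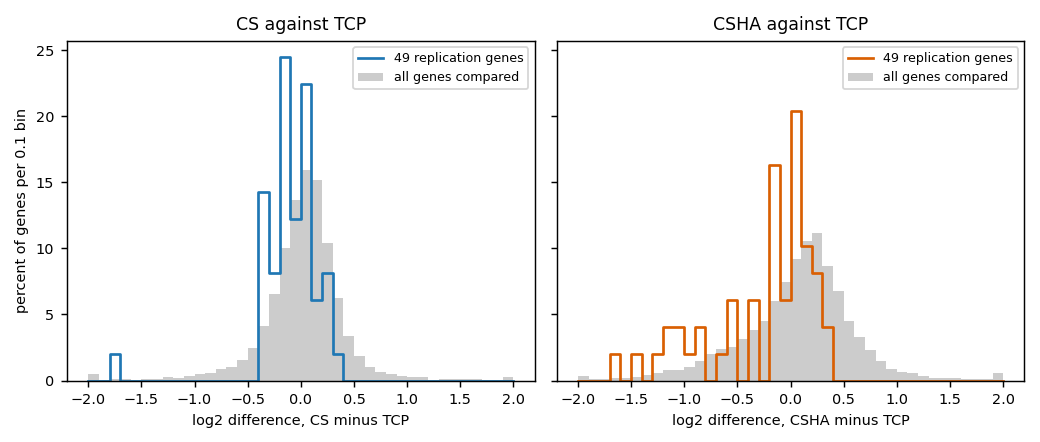
Percent of genes per 0.1 bin (y axis) by log2 difference from TCP (x axis), for all genes compared (grey, values beyond 2 in the end bins) and for the 49 replication genes (line), on CS at left and CSHA at right, 1 array each. On CSHA the members form a body near 0 and a lower tail of 12 genes beyond 1.5-fold, each read from its brightest probe (the other probe of POLE gave 0.47). With spike-in scaling both CSHA distributions move to the right by 0.44.

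Of the members at least 1.5-fold lower on CSHA that had a promoter entry, 2 of 8 held the E2F-type motif (25%), POLA2 and POLE, and of the other members 12 of 33 did (36.4%). The direction of POLE rests on its brightest probe, since its other probe gave 0.47. MCM2, ORC1, FEN1, RFC2, POLD2 and DNMT1 held no match in the window searched, which says only that these letters were absent there. The CCAAT box was in 3 of the 8 (37.5%) and 20 of the 33 (60.6%).

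Other genes of the pathway were set beside the members as a description. These lists, like the members, were chosen with earlier results of these data known, so a contrast between them could follow from the choice. Of 34 further replication factors, none was 2-fold different on either membrane and none was 1.5-fold lower on CSHA. Their medians were 0.06 on CS and 0.04 on CSHA (0.48 on CSHA with spike-in scaling, where 13 were 1.5-fold higher, with POLD4 at 1.06 past 2-fold). The lowest was NASP, a histone chaperone, at -0.31 on CS and -0.55 on CSHA. The highest was ORC3 on CS (0.35) and POLD4, the smallest subunit of polymerase delta, on CSHA (0.62). ORC2, ORC3, ORC4 and ORC5 lay between 0.15 and 0.27 on CSHA, where ORC1 gave -1.21.

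Of 29 cell cycle regulators measured, the median on CS was -0.07 and that on CSHA was -0.13 (0.30 with spike-in scaling). CDK6, a G1 kinase, was the lowest on CS (-1.19), with signals of 8293, 4328 and 9457 for TCP, CS and CSHA, and it was not lower on CSHA (0.26). E2F4, a repressor E2F, was the lowest on CSHA (-1.28), with signals of 1014, 1049 and 398. CDC25A, the phosphatase that activates CDK2, gave 1298, 1018 and 518 (-1.25 on CSHA). On CSHA 7 of the 29 (24.1%) were 1.5-fold lower, against 11.1% of all genes. With spike-in scaling 2 regulators were 1.5-fold lower and none 2-fold lower on CSHA, and E2F4 gave -0.84. RBL2, a pocket protein of the retinoblastoma family, was the highest on both membranes (0.37 and 0.59, the latter 1.03 with spike-in scaling).

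The 12 proliferation markers of the later cell cycle gave -0.27 as their median on CSHA, where 10 of 12 were lower, and this turned to 0.17 with 6 of 12 lower under spike-in scaling. Their median was -0.18 on CS. FOXM1, a factor of G2/M transcription, was the lowest on both (-0.60 on CS, -1.25 on CSHA), with signals of 3456, 2727 and 1387. PLK1 (-1.12) and CDC20 (-1.01) were also 2-fold lower on CSHA. At 1.5-fold, 5 of the 12 (41.7%) were lower on CSHA, against 11.1% of all genes. With spike-in scaling 2 markers were 1.5-fold lower and none 2-fold lower, and FOXM1 gave -0.81. MKI67, which encodes Ki-67, gave 3611, 3304 and 3331 on TCP, CS and CSHA by the brightest of its 3 probes, which is -0.38 on CS and -0.05 on CSHA. Its other probes are not given here. CDK1 was the highest on CS (0.14) and CCNB1 on CSHA (0.24).

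**Figure D5:**
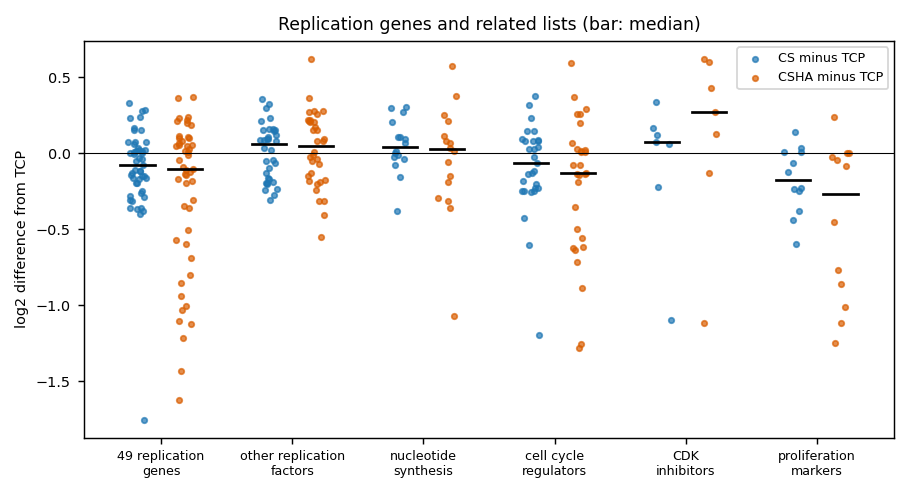
Log2 difference from TCP (y axis) of single genes (points) in the 49 replication genes and 5 related lists, with the median as a bar, for CS minus TCP and CSHA minus TCP (1 array per substrate). The members and lists were chosen with earlier results of these data known. The medians lie between -0.27 and 0.27. Beyond 2-fold lower on CSHA lie 7 of the 49 replication genes (14.3%) and 3 of 12 proliferation markers (25%). The other lists have 2 of 29 cell cycle regulators (6.90%), 1 of 16 nucleotide synthesis genes (6.25%), 1 of 7 CDK inhibitors (14.3%) and no further replication factor. Over all genes the share is 3.93%. With spike-in scaling all CSHA points move 0.44 up, which leaves 1 replication gene and no gene of the other lists beyond 2-fold lower.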

How the data were processed

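Total RNA of HT29 cells from each of 3 substrates was hybridized to one-color 8 × 60 k expression arrays, 1 per substrate. The authors deposited scanner text files from Feature Extraction (10.7.3.1 in the file headers), with the processed and median intensity of each of 62976 spots, background intensity and flags, and a series table of log2 values. That table equals log2 median intensity plus a constant per array. The processed intensity was background-corrected by the scanner software, and the median intensity, and so the deposited table, was not. The labels and the methods name different extraction and labeling kits. Control and outlier-flagged spots were left out here. The processed intensity was raised to a floor of 1, and the log2 values of the spots of a probe were averaged and shifted by the 75th percentile of the array, as in the methods. Accessions were matched to symbols through RefSeq genes of GRCh38.p14 (30004 of 50599 probes matched, 20595 did not), with no coordinates taken, since the files use an older build. The brightest probe stood for each gene. Comparisons kept a gene that the flags called above background in 1 or both of the arrays compared. With 1 array per substrate, genes were counted by size (2-fold, and 1.5-fold as an alternative), and the number of arrays limits the precision. The spot SD of a difference was taken from probes printed 10 times of like brightness. The steps were tested on simulated data. Alternatives were normexp background correction (limma 3.58.1, R 4.3.3, offset 50), quantile normalization, other scalings including 7 spike-in probes, the deposited table, other filters and other probes. Python 3.11.15 with numpy 2.4.6 and pandas 2.3.3 was used otherwise.

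The members and lists were chosen with earlier results of these data known. Named genes are the members at least 1.5-fold different in any comparison, the 5 highest and 5 lowest in each comparison with TCP, those whose probes disagreed, and the highest and lowest gene of each other list. The remaining members are named once for their role, and PLK1, CDC20, CDC25A, MKI67, CDKN2A and the further ORC genes were named after their values were seen.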

Additional observations from a re-analysis of the deposited data

How the results depend on the processing

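With 1 array per substrate no replicate could be left out. No paired analysis was possible because each group holds 1 sample. Of the summary values recomputed under the alternatives, 99 were called the same, 15 moved by more and 2 changed sign. A median was called the same within the spread among spots, and a count within 1.5 times. A percent was called the same inside the 95% binomial interval of its main value, which treats the genes as independent. On CS, the count of members 2-fold lower was 0 with normexp and 0 with the second brightest probe (11 members), and 22.4% and 24.5% of members were higher with quantile normalization and with the 75th percentile over detected probes. On CSHA, the count 2-fold lower was 4 with normexp, 1 with spike-in scaling, 2 with the second brightest probe and 12 at 1.5-fold. The percent of members higher on CSHA was 26.5 with quantile normalization, 28.6 with the percentile over detected probes and 71.4 with spike-in scaling, and the median turned to 0.33 with the last. For CSHA against CS, the median was -0.13 with normexp and turned to 0.31 with spike-in scaling, and the count 2-fold lower was 0 with spike-in scaling, 0 with the second brightest probe and 8 at 1.5-fold. POLE reversed to 0.47 by its second brightest probe. The causes were not tested, apart from the smaller number of members with a second probe. Without a filter on dim probes the median of all genes moved by -0.12 on CSHA and by -0.10 on CS, while that of the members did not move. The gap, members minus all genes, was then -0.11 on CSHA and -0.03 on CS, against -0.23 and -0.12 with the filter. Of the 7 members 2-fold lower on CSHA, between 1 and 7 were still 2-fold lower under the alternatives that gave all 7 a value, and all 7 were lower under each of these. The match by accession alone was not run apart, since the files hold accessions only. A motif search in the encoded proteins was not run.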

Other observations

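Of 16 further nucleotide synthesis genes, the median on CS was 0.04 and that on CSHA was 0.02 (0.46 with spike-in scaling). CAD, the enzyme that starts pyrimidine synthesis, was the lowest on both membranes (-0.38 and -1.07), with signals of 3583, 3286 and 1627 for TCP, CS and CSHA. No other gene of the list was 2-fold different in the 75th percentile scaling. With spike-in scaling CAD gave -0.63 on CSHA and SAMHD1 gave 1.01, past 2-fold higher. DUT, the dUTPase, was the highest on CS (0.30), and SAMHD1, which degrades nucleotides outside S phase, was the highest on CSHA (0.57), with dim signals of 130, 154 and 185.

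Of 7 CDK inhibitors, the median on CS was 0.07 and that on CSHA was 0.27 (0.70 with spike-in scaling). CDKN2B was the lowest on both membranes (-1.10 and -1.12), with dim signals of 71.1, 39.6 and 31.3 (-0.68 on CSHA with spike-in scaling). CDKN1B, which encodes p27, was the highest on CS (0.34). CDKN1A, which encodes p21, could not be measured above background on TCP and gave signals of 14.0, 30.3 and 35.2, so it was at least 1.05-fold higher on CS and at least 1.53-fold higher on CSHA. CDKN2A, which encodes p16 and an overlapping second product, gave 32622, 40664 and 37398 (0.06 and 0.27). With these few arrays none of the values has a replicate check.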
